A study of Mus musculus with 4 samples.

Results

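Transcripts that GENCODE mouse release 21 classes as targets of nonsense-mediated decay (NMD) were followed gene by gene in hippocampal RNA of sleep-deprived and control mice. The files listed 7183 such transcripts in 4574 genes, of 35427 genes in all. A gene was kept when it had at least 200 estimated reads in each group and its NMD transcripts at least 20 reads, taken as the mean of the groups. Of the 4574 genes, 2864 met the first minimum and 1345 met both. These 1345 genes, chosen by their estimated reads in these same libraries, are described here. The measure was the NMD share, that is, the reads of a gene's NMD transcripts as a percentage of all reads of that gene. The minimum leaves out genes with few NMD reads in both groups, and 141 kept genes had fewer than 20 such reads in control and 72 fewer than 20 after sleep deprivation. At the edge of the minimum, Capn10 (20.1 reads) and Puf60 (20.1 reads) lay just inside, and Phldb1 (19.96 reads) and Galnt9 (19.7 reads) just outside.

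NMD is a surveillance pathway that degrades messages in which translation stops well before the end of the coding sequence. A stop codon is usually read as premature when an exon junction lies at least 50 bases downstream of it, because the protein complex left at that junction by splicing is then not removed by the translating ribosome. UPF1, UPF2, UPF3, SMG1 and further proteins recognise such messages and recruit the decay enzymes. Many genes of splicing factors make an NMD transcript by including a so-called poison exon, and in this way limit their own protein. In neurons the pathway is also known to act on messages of synaptic proteins. Annotated NMD transcripts are predictions from sequence, and whether any of them was degraded was not measured here.

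The mice were C57BL/6J animals aged 4 months that carried P2RY12CreER and the Rpl22HA RiboTag allele, in both groups. In this line a Cre under the control of the microglial gene P2RY12 switches on a tagged ribosomal protein, and tagged ribosomes with their messages are then pulled down from the dissected hippocampus. All mice were fear conditioned, and the control mice then slept for 6 h while the others were kept awake for 6 h. Each sample pooled 2 mice and was enriched for polyA RNA. Sleep deprivation stands in the treatment field of all 4 samples, and groups therefore follow the sample titles. Each group had 2 files, whose gene totals agree more closely than separate draws of reads would, so they count as 1 sample. Every comparison is therefore of 1 library with 1 library, has no replicate check and carries no p-value. The files held between 14431647 and 14877011 estimated reads. Markers of microglia were low in both libraries, with 10 markers summing to 144 CPM (counts scaled to library size) in control and 421 after sleep deprivation, where 7 neuronal markers summed to 3027 and 2566. The astrocyte markers summed to 1180 and 663 and those of oligodendrocytes to 3343 and 2048. These marker levels moved between the libraries alongside all differences given below, and their part in them was not tested. From these RNA levels, fewer cells of a type, less RNA per cell and a different pulldown yield cannot be told apart.

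What makes these transcripts candidates for decay is visible in their sequence. The first set shows the end of the reading frame in 4 transcripts that took a larger share of their gene after sleep deprivation, chosen because they carry gains in well-read genes of splicing, RNA editing and synaptic function. Each line gives the last 60 bases of the annotated reading frame, 5′ to 3′, with the premature stop codon in capitals. The sequences and positions are those of GENCODE release 21 on GRCm38 (mm10).
Tra2a-202: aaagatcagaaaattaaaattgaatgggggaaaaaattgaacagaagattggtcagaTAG
Ddx5-208: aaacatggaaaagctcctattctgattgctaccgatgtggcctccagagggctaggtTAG
Adarb1-203: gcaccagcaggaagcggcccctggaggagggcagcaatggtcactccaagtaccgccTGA
Gria3-206: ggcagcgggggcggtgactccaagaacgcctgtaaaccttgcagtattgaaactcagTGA
The Tra2a-202 stop lies in exon 2 of 9, at chr6:49252803-49253108 (- strand), a 306-base exon that no coding transcript of the gene contains. It closes the frame after 59 codons, where the longest coding transcript has 282, and 7 junctions follow it. The Ddx5-208 stop falls in exon 11 of 12, at chr11:106782469-106784018 (- strand), in bases that extend a coding exon, after 406 of 615 codons and 1485 bases before the last junction. The Adarb1-203 stop in exon 4 of 11, at chr10:77321649-77322630 (- strand), lies in exon sequence that coding transcripts also use but read in another frame, and it ends the protein after 82 of 711 codons. The Gria3-206 stop in exon 15 of 17, at chrX:41669501-41669615 (+ strand), is likewise in sequence shared with coding transcripts, after 818 of 888 codons, and 36 of its 60 printed bases lie in that exon.

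The second set shows 4 transcripts that took a smaller share after sleep deprivation, from a subunit of the spliceosome, a translation factor, an endocytic protein and a transcription regulator. Capitals again mark the stop.
Snrnp70-204: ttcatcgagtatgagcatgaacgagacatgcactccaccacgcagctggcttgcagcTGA
Eif4a2-210: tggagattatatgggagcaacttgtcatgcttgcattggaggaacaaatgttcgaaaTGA
Dnm1-206: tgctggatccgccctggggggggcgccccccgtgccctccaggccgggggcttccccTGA
Prdm4-206: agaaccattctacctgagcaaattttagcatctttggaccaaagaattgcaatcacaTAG
Snrnp70-204 stops in exon 6 of 9, at chr7:45383125-45383184 (- strand), and Prdm4-206 in exon 4 of 12, at chr10:85908296-85908359 (- strand), both in exons absent from the coding transcripts, of 60 and 64 bases. All bases of Snrnp70-204, those of its 60-base exon included, also lie in other transcripts of the gene. Eif4a2-210 stops in exon 4 of 10, at chr16:23109985-23110153 (+ strand), after 97 of 408 codons, in exon sequence read in another frame by coding transcripts. Dnm1-206 stops in exon 7 of 9, at chr2:32312127-32312342 (- strand), only 100 bases before the last junction. Its annotated frame has no start, as is also the case for Snrnp70-204, so these are partial transcripts.

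A last pair comes from splicing regulators whose NMD share differed little between the libraries and is shown for contrast, with the stop in capitals.
Srsf1-204: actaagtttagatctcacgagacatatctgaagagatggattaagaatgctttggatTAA
Clk1-210: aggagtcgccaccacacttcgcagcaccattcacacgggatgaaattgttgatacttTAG
Srsf1-204, also a partial transcript with no annotated start, stops in exon 3 of 4, at chr11:88049977-88050095 (+ strand), 80 bases before the last junction. Clk1-210 stops in exon 4 of 12, at chr1:58419667-58419733 (- strand), with 8 junctions after it. By sequence all 10 printed transcripts meet the usual rule, whether their share was larger, smaller or alike. Their class is predicted from sequence, so this was built into their choice. Among the 10, Adarb1-203, Gria3-206, Snrnp70-204, Eif4a2-210, Dnm1-206, Srsf1-204 and Clk1-210 have no base that every other transcript of their gene lacks. The shares of these transcripts are therefore uncertain.

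NMD transcripts took a larger part of all reads after sleep deprivation. They held 4.03% and 4.05% of matched reads in the control files and 4.60% in each of the sleep-deprived files. The files of a group are 1 library, so their closeness is no replicate check of this difference. Retained-intron transcripts went from 10.6% to 13.3% of reads and protein-coding transcripts from 80.0% to 77.8%. Inside the 1345 genes, however, the pooled NMD share was alike, at 19.8% and 19.9% in the control files and 19.6% in both sleep-deprived files. What differed was the weight of the genes, which held 19.6% of all reads in control and 22.7% after sleep deprivation. Taking each gene's reads from the sleep-deprived library and its NMD share from control gives 4.46% of all reads, beside the 4.44% measured and 3.89% in control. Taking gene reads from control and shares from the sleep-deprived library gives 3.87%. By gene, the median CPM ratio of sleep-deprived over control was 1.12 for the 1345 genes. It was 1.03 for all 8698 genes with 200 or more reads in each group and 1.0 for the 5834 of them that have no NMD transcript. These sets are not chosen alike, because only the 1345 genes also had to meet the minimum of NMD reads in these same libraries. Ddx5 alone added 18063 of the NMD reads. Without Ddx5, NMD transcripts held 3.96% of reads in control and 4.40% after sleep deprivation, and the pooled share within genes was 19.6% and 19.0%.

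Single genes moved in both directions about a centre near 0. The median difference in NMD share, sleep-deprived minus control, was 0.0689 percentage points, with quartiles of -6.02 and 4.80 points. The share was higher in 678 genes, lower in 652 and equal in 15, and 651 genes lay within 5 points. Across the 1345 genes the shares of the groups correlated with a Pearson r of 0.889, beside 0.974 between the control files and 0.961 between the sleep-deprived files. Genes are not independent replicates, and these values are a description.

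**Figure D1:**
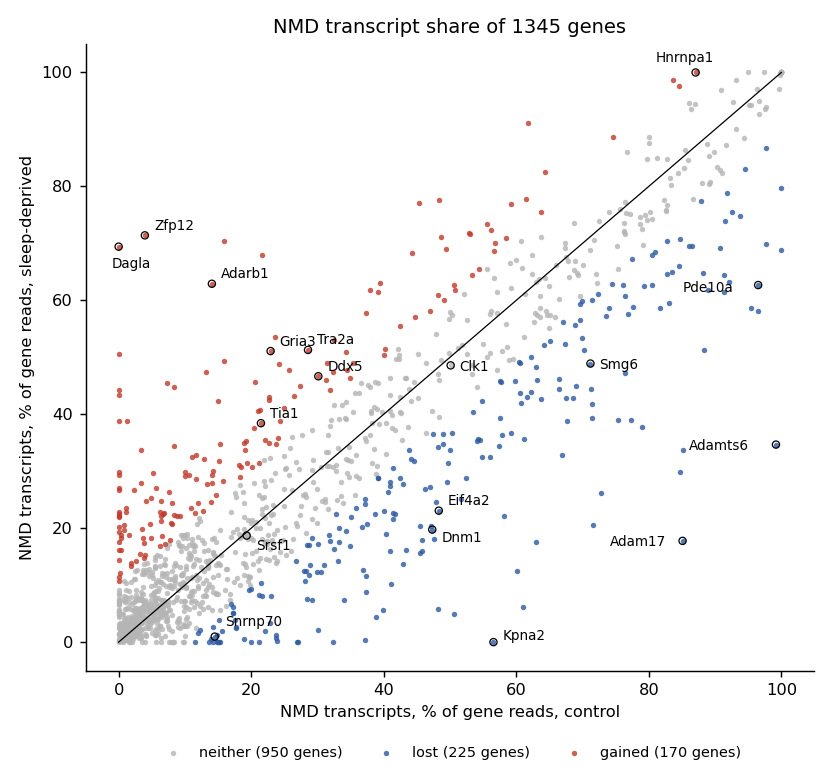
NMD share of each of the 1345 genes, as a percentage of the gene's reads, in control (x axis) and sleep-deprived (y axis) libraries, with the line of equal shares. Red points are the 170 genes that gained and blue points the 225 that lost at least 10 points, and named genes are ringed. Points spread to both sides of the line over the whole range of shares.

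A gene is said here to have gained or lost NMD share when the groups differed by at least 10 points and the 95% counting interval of the difference (Newcombe) excluded 0. By that rule 170 genes gained (12.6%) and 225 lost (16.7%). The same rule applied to all 24681 single transcripts of any class with enough reads gave 11.9% higher and 13.3% lower, to single protein-coding transcripts 14.5% and 16.9%, and to single NMD transcripts 12% and 15.7%. The shares of NMD genes that gained or lost are thus near those of transcripts in general. Retained introns, summed by gene, were higher in 14.5% of 3896 genes and lower in 6.44%. The balance of NMD gains and losses turned with the measure of size, since a limit at an odds ratio of 2 gave 308 gains and 261 losses. Of the calls, 131 gains and 201 losses came from the 1132 genes with at least 20 NMD reads in each group. The genes nearest to the limit were Cdh7 (9.99 points) and Cbarp (9.96 points) outside, and Exosc10 (-10.1 points) and Calm3 (-10.1 points) inside.

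The files of a group show how firmly the reads of a gene are divided among its transcripts. The control files differed by a median of 0.867 points and the sleep-deprived files by 0.991 points, while the groups differed by a median of 5.25 points. In 163 of the 170 gains and 219 of the 225 losses the files of the groups did not overlap. Over all genes kept, called or not, both sleep-deprived files lay above both control files in 553 and below them in 528. The files overlapped in only 264 of the genes kept, so a lack of overlap was usual and not special to the calls. In 132 gains and 166 losses the nearest files stood at least 10 points apart. In 128 genes (9.52%) the files of a group were themselves more than 10 points apart. Over all genes, the totals of these files differ by less than sampling noise. Shares of such genes are uncertain, and why their files differ was not tested.

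**Figure D2:**
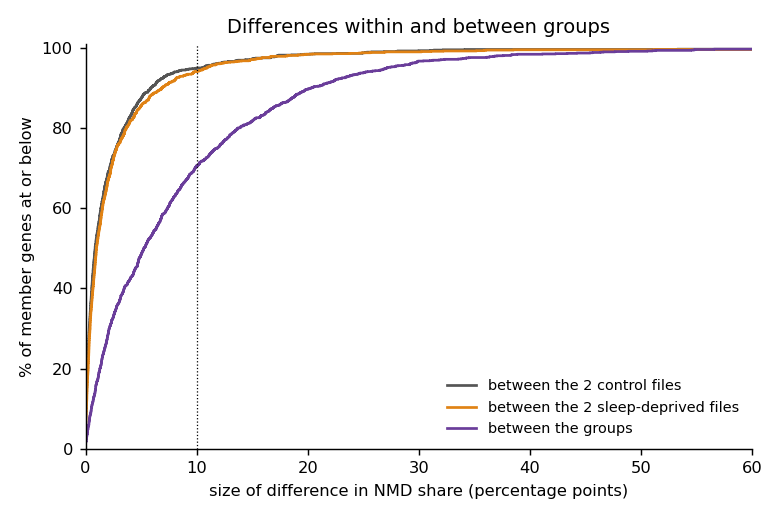
Cumulative percentage of the 1345 genes (y axis) by the size of the difference in NMD share in percentage points (x axis, shown to 60), between the control files, between the sleep-deprived files and between the group means. The dotted line marks 10 points. The curves within groups rise well before the curve between groups, whose median is 5.25 points.

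A share can move because NMD reads change or because the other reads of the gene do. The calls were made on the share itself, so the NMD ratio is above that of the other reads in gains and below it in losses. Among the 170 gains, the median CPM ratio was 2.63 for NMD transcripts and 0.827 for the other transcripts, and NMD reads were at least 2-fold higher in 110 genes while other reads were at least 2-fold lower in 18. Among the 225 losses, the medians were 0.610 and 1.64, with NMD reads at least 2-fold lower in 84 genes and other reads at least 2-fold higher in 74. The gene as a whole was at least 2-fold higher in 2 gains and 3 losses and lower in 1 gain and 1 loss. Among the 950 other genes it was higher in 15 and lower in 5. Over all 1345 genes, NMD reads were at least 2-fold higher in 23.9% and lower in 11.2%, and other reads in 7.66% and 2.08%, beside 21.8% and 9.85% of all single transcripts. The shares of a gene add up to the whole gene, so a called gene must show an opposite change in its other classes. Coding transcripts took up most of this exchange. In the gains their share fell by 16.8 points in the median and by 10 points or more in 141 genes, and in the losses it was 14.1 points higher in the median and at least 10 points higher in 153. Over all genes with enough coding reads, the summed coding share was higher by that rule in 6.84% and lower in 9.59%. Retained introns were at least 10 points higher in 51 of the losses and lower in 2, and higher in 4 of the gains and lower in 15. Among the 950 other genes they were higher in 93 and lower in 48.

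**Figure D3:**
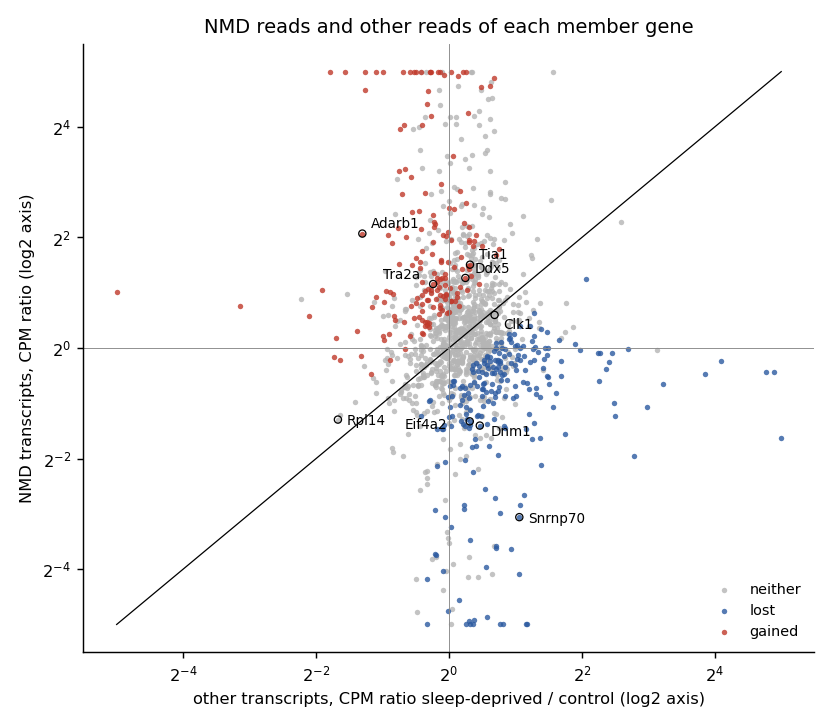
CPM ratio of sleep-deprived over control for the NMD transcripts (y axis) and the other transcripts (x axis) of each gene, both on log2 axes, with the line of equal ratios; values beyond the axes are drawn at the edge. Genes that gained share (red) lie above the line and genes that lost share (blue) below it, which follows from the calls, with median NMD ratios of 2.63 and 0.610.

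Among the 118 genes with more than 5000 reads, where counting error and the difference between files are smallest, 80 lay within 5 points, 13 gained (11.0%) and 11 lost (9.32%). Of 1788 single transcripts of other classes in genes of that depth, 6.21% were higher and 7.55% lower by the same rule, and this difference from the NMD shares was not tested. These 24 genes were picked after their values were seen, for their depth. Gains in RNA helicases, RNA-binding proteins and splicing regulators are given first. Ddx5, a DEAD-box RNA helicase that acts in splicing and transcription, had an NMD share of 30.1% in both control files and of 46.7% and 46.6% in the sleep-deprived files. The gain was 16.5 points (95% counting interval 16 to 17.1), with NMD reads 2.41-fold higher and other reads 1.19-fold higher. Ddx5-208, printed above, carried the gain and Ddx5-201, the coding transcript, went from 69.1% to 52.4% of the gene's reads.

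Tra2a, a splicing activator of the SR family, had shares of 28.3% and 28.8% in control and 49.5% and 53.1% after sleep deprivation. Its gain of 22.7 points (21 to 24.5) lay in Tra2a-202, the transcript with the added 306-base exon, whose reads were 2.23-fold higher while the other reads were 0.848-fold those of control. Tia1, an RNA-binding protein of stress granules that also regulates splicing, had 22.6% and 20.3% in control and 37.9% and 38.9% after sleep deprivation, a gain of 17.0 points (15.5 to 18.4). Zranb2, a zinc-finger splicing factor, had 22.2% and 19.8%, then 43.6% and 37.6%. In each of these genes both sleep-deprived files lay above both control files.

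Rbm5, another splicing regulator, had 6.93% and 7.11% in control and 16.6% and 17.9% after sleep deprivation, a gain of 10.2 points (9.32 to 11.2) with NMD reads 3.13-fold higher. Akap8, a nuclear anchoring protein, had 42.6% and 42.4%, then 55.6% and 55.4%. Khdc4, a KH-domain protein that binds RNA, had 54.1% and 52.4%, then 64.6% and 64.4%. Hnrnpa1, a major regulator of splice-site choice, had 86.1% and 88.1% in control and 100% in both sleep-deprived files, where no read was given to its coding transcripts. The stop of the most-read NMD transcript of Hnrnpa1 is shared with a coding transcript, and near-identical copies of this gene exist, so its values are uncertain.

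The other gains of this depth were in genes of signalling and cell structure. Tnik, a kinase found at synapses, had 38.1% and 37.9% in control and 61.7% and 62.0% after sleep deprivation. Ppp1cc, a catalytic subunit of protein phosphatase, had 55.8% and 55.3%, then 73.9% and 73.0%. Anapc5, a subunit of the anaphase-promoting complex, had 34.5% in both control files, then 48.5% and 47.0%. Usp3, a deubiquitinase, gained 11.9 points and Ank1, an ankyrin of the membrane skeleton, gained 10.2 points. Measured as a share of TPM, in which longer transcripts weigh less, the gains were smaller than 10 points in Tia1 (9.76), Ppp1cc (9.04), Anapc5 (7.88), Rbm5 (9.40), Ank1 (4.83) and Usp3 (2.72), and that of Tnik was 10.3 points. Set against coding transcripts alone, Akap8 gained 38.2 points, Rbm5 25.9 points and Usp3 8.54 points. Without the second sleep-deprived file the gains were 9.58 points in Rbm5 and 9.44 points in Ank1, and without the second control file that of Ank1 was 9.82 points.

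The losses of this depth were led by a synaptic gene. Dnm1, the dynamin that pinches off synaptic vesicles, had an NMD share of 47.2% and 47.4% in the control files and 19.7% and 19.8% in the sleep-deprived files, a loss with a difference of -27.6 points (-28.6 to -26.5). Its NMD reads were 0.378-fold those of control and its other reads 1.38-fold, and Dnm1-204, a coding transcript, went from 30.5% to 55.1% of the gene. Syne2, which links the nucleus to the cytoskeleton, went from 60.9% and 61.5% to 35.9% and 35.6%, with NMD reads at 1.11-fold and other reads at 3.15-fold. Eif4a2, an RNA helicase of translation initiation that has been described as an NMD target, went from 48.7% and 47.9% to 22.9% and 23.2%. Its difference was -25.2 points (-26.4 to -24), and 13.3% of its exon bases lie in another gene.

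Genes of splicing and RNA processing were also among the losses. Ice1, a part of a complex that elongates small nuclear RNA genes, went from 54.3% and 54.6% to 35.6% and 35.5%, and Ccnl1, a cyclin tied to splicing, from 60.4% and 61.1% to 42.1% and 41.7% (a difference of -18.9 points, and of -10.7 against coding transcripts alone). Hnrnpl, a splicing repressor and activator, went from 39.9% and 45.8% to 29.4% and 26%. Snrnp70, the protein that holds the U1 particle together, went from 14.7% and 14.3% to 1.11% and 0.827%, with NMD reads 0.120-fold those of control while its other reads were 2.08-fold. The retained-intron transcripts of Snrnp70 already held 66.7% of the gene in control and held 84.5% after sleep deprivation. Against coding transcripts alone its difference was -37.4 points. Ahcyl1, a regulator of calcium release, went from 84.9% and 84.4% to 71.5% and 69.9%.

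Gpi1, a glycolytic enzyme, and Akap8l, a relative of Akap8, lost 10 points as a share of all gene reads but not against coding transcripts alone. Gpi1 had 20.1% and 19.3% in control and 9.25% and 8.91% after sleep deprivation, and its retained-intron transcript Gpi1-203 went from 39.4% to 68.4%. Akap8l had 32.4% and 33.2%, then 22.6% and 22.3%, while its NMD reads were 1.12-fold and its other reads 1.88-fold those of control. Against coding transcripts alone the difference had the opposite sign in Gpi1 (1.64 points) and Akap8l (1.18 points). Dgkz, a lipid kinase, had a difference of -10.3 points by reads, of -0.54 points by TPM share and of -18.8 points against coding transcripts alone. Without the first control file the difference of Dgkz was -8.62 points, and without the first sleep-deprived file -9.83 points. Without the second control file that of Akap8l was -9.91 points.

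The largest differences in points, in contrast, came mostly from genes with fewer reads. Dagla, which makes an endocannabinoid, had no NMD read in the control files and shares of 87.4% and 51.5% after sleep deprivation, with 771 and 682 reads for the whole gene. Zfp12, a zinc-finger gene, had 7.89% and 0%, then 70.2% and 72.6%. Adarb1, the RNA-editing enzyme of glutamate receptor messages, was the most-read of the 12 largest gains (5006 and 4417 reads). Its share was 10.6% and 17.6% in control and 62.0% and 63.9% after sleep deprivation, a gain of 48.8 points (47.1 to 50.5). Its NMD reads were 4.20-fold higher and its other reads 0.405-fold those of control.

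The other 9 of the 12 largest gains were in Hectd2, Rin2, Mrps34, Ntng1, Atp13a5, Tep1, Cpne9, Kctd9 and Cops7b, with gains between 34.3 and 54.5 points. Of these Cpne9, a calcium-dependent lipid-binding protein, had the most reads (750 and 808) and went from 1.16% and 1.27% to 39.3% and 38.3%. Against coding transcripts alone Cpne9 gained 85.1 points. For Mrps34, a protein of the mitochondrial ribosome, 77.8% of the exon bases lie in another gene, so its reads are uncertain, and for Hectd2 20.2% do. The control files of Hectd2 themselves stood at 31.6% and 0.30%. For Atp13a5 the sleep-deprived files were at 13.1% and 64.3%, so that its gain of 38.8 points was 64.3 points without the first of them. Without the second, the difference was 13.1 points, on too few NMD reads to meet the minimum. By TPM share Tep1 gained 12.4 points, beside 38.2 by reads.

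Adam17, the protease that sheds tumour necrosis factor from the cell surface, led the losses. Its shares were 84.3% and 85.9% in control and 29.6% and 5.84% after sleep deprivation, with 565 and 661 reads. Adamts6, a secreted protease, went from 100% and 98.4% to 33.3% and 36.1%, and Kpna2, a nuclear import receptor, from 62.8% and 50.3% to 0% in both files. Prdm4 went from 56.1% and 64.1% to 10% and 14.9%. Ifngr1, the interferon gamma receptor, had a difference of -51.3 points on 221 and 262 reads.

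Dus2, Fancm, Fam20a, Bbs5, Dolpp1 and Tmem231 were also among the 12 largest losses, with differences between -54.9 and -42.3 points. For Dus2 14.1% of the exon bases lie in another gene. In Fancm, a DNA helicase, the control files themselves stood at 29.0% and 92.9%. Its difference of -54.8 points was -86.7 points without the first control file and -22.8 without the second, and -23.0 points by TPM share. In each of these genes both files of one group lay above both files of the other, which the choice of these genes required.

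**Figure D4:**
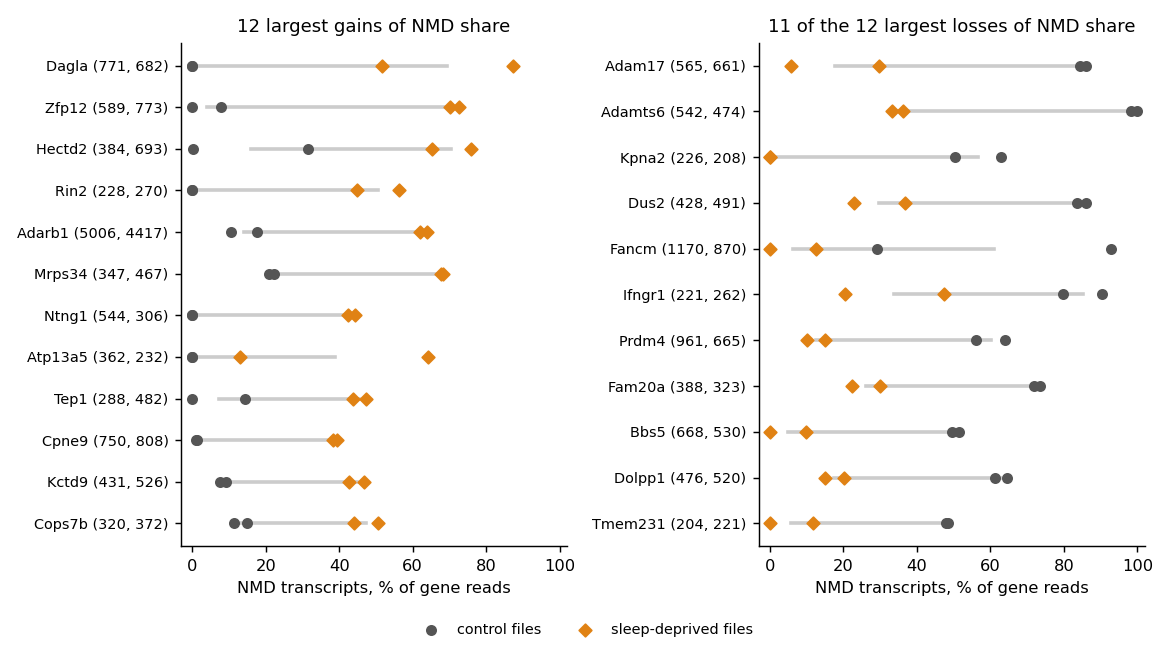
NMD share in percent of gene reads (x axis) in each of the 4 files for the 12 largest gains and 11 of the 12 largest losses, with the mean gene reads in control and sleep-deprived files in brackets. Circles are control files, diamonds sleep-deprived files, and grey bars join the group shares. Files of a group stand more than 20 points apart in Fancm and Hectd2 (control files) and in Atp13a5, Dagla, Ifngr1 and Adam17 (sleep-deprived files).

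Gene groups were then read against the 12.6% and 16.7% of all 1345 genes. Of 25 genes of SR proteins and their kinases, 18 were among the 1345, of which 2 gained (Tra2a and Srsf9) and 1 lost (Clk2). The median difference of the 18 was -0.16 points. Srsf9 went from 18.2% and 18.8% to 31.9% and 29.7%, and Clk2, a kinase of SR proteins, from 34.7% and 37.0% to 23.5% in both files. Srsf1, the founding SR protein, had 19.3% in both control files and 18.5% and 18.9% after sleep deprivation. Clk1 had 51.2% and 49.0%, then 48.3% and 48.9%, although its NMD reads and its other reads were 1.51-fold and 1.61-fold higher. Son, a scaffold of nuclear speckles, went from 9.67% and 9.64% to 18.4% and 19.1%, just under the limit of 10 points.

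Of 53 other RNA-binding proteins, 20 were included, 5 gained (Ddx5, Rbm5, Hnrnpa1, Qk and Tia1) and 1 lost (Hnrnpl), with a median difference of 2.25 points. Qk, which guides splicing in glia, went from 7.71% and 8.35% to 24.5% in both sleep-deprived files while its other reads were 0.543-fold those of control. Hnrnpu, with 30076 and 33398 reads, had 13.4% and 13.5%, then 14.3% in both. Among 15 core spliceosome genes 1 gained (U2af1l4) and 1 lost (Snrnp70), with a median difference of 0.39 points. Prpf38b, a tri-snRNP protein, had 56.5% and 56.9%, then 64.3% and 63.5%. Sf1, which binds the branch point, had 55.2% and 59.1%, then 47.8% in both, and Prpf39 had 10.2% and 9.22%, then 3.50% and 2.10%.

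Ribosomal protein genes stayed under the limit, with no gain and no loss among 10 included genes of 81, although several of the genes themselves were much lower. Rpl14 was at 0.338-fold of control as a gene, and its NMD share was 25.5% and 25.0%, then 30% and 31%. Rpsa was at 0.356-fold, with shares of 33.9% and 30.2%, then 36.1% and 41.8%. NMD and other reads of Rpl14 were at 0.408-fold and 0.314-fold, so both kinds of transcript were lower together. Many processed copies of ribosomal protein genes exist in the genome, and these values are uncertain for that reason. Of 6 included genes of energy metabolism, Ndufa10, a subunit of complex I, lost share, from 47.7% and 47.0% to 36.2% and 36.8%. Against coding transcripts alone its difference was -8.23 points.

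Of 51 synaptic genes 13 were included, of which 2 gained and 1, Dnm1, lost. Gria3, a subunit of AMPA-type glutamate receptors, had 28.8% and 17.0% in control and 54.8% and 47.4% after sleep deprivation, a gain of 28.2 points (26.1 to 30.2). Its other reads were 0.558-fold those of control. Shank3, a scaffold of the postsynaptic density, had no NMD read in control and 17.7% and 21.1% after sleep deprivation. Scn1a, a neuronal sodium channel, had 19.0% and 18.7%, then 11.7% and 11.8%, and Dlg1, a synaptic scaffold, had 44.4% and 33.6%, then 31.9% and 30%. No gene of a list of 25 microglial genes was included. Among these, 3 have an annotated NMD transcript, 8 had 200 reads in each group, and none met both conditions.

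Genes of the decay pathway mostly stayed under 2-fold as genes. Of 31 genes of NMD factors and their partners none was 2-fold higher under the TMM scaling used here and 1, Magohb, was 2-fold lower (0.496-fold), with a median ratio of 1.08, beside 4.24% higher and 5.65% lower among 14907 measured genes. Smg1, the kinase that phosphorylates UPF1, stood at 1.99-fold, from 1106 to 2195 CPM (95% counting interval 1.95 to 2.02), and passed the limit of 2-fold with TMM computed without a filter on low counts. Upf1, the central helicase, was at 1.59-fold and Upf2 at 1.23-fold. Magoh, a core protein of the exon junction complex, was at 0.554-fold. Only 2 of the 31 met the read minimums for their own NMD transcripts. Smg6, the endonuclease that cuts NMD targets, had shares of 71.7% and 70.6% in control and 50.3% and 47.5% after sleep deprivation, a difference of -22.3 points (-26.9 to -17.5), and of -38.3 points by TPM share. Dcp1a, of the decapping complex, had 8.21% and 6.94%, then 0% in both files, on 600 and 438 gene reads. Eif4a2 was the one included gene on a list of 20 stress-related genes and known targets.

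The 6 genes with the most NMD reads were Ddx5, Lars2, Bmp1, Pkd1, Clk1 and Atp2a2. In several of them nearly all reads were given to an NMD transcript. Atp2a2, the calcium pump of the endoplasmic reticulum, had 99.8% and 99.9% in control and 99.5% in both sleep-deprived files. Lars2, the mitochondrial leucyl-tRNA synthetase, had 97.0% and 95.8%, then 97.8% and 96.5%, while its NMD reads were 1.80-fold higher. Pkd1, the polycystin membrane protein, had 89.2% and 89.4%, then 80.6% and 80.9%. Bmp1, a procollagen protease, had 63.2% and 64.2%, then 71.4% and 70.7%. Over the 1345 genes, 278 had an NMD share above 50% in control and 250 after sleep deprivation.

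The position of the stop codon was read from the most-read NMD transcript of each gene. The NMD class is itself predicted from sequence, so this position is not independent of the choice of genes. In 1339 of 1345 genes the stop lay at least 50 bases before the last junction, with a median of 539 bases. The same held for 99.5% of all listed NMD transcripts. In 773 genes it lay in exon sequence that coding transcripts share but with another frame or site, and of these 11.5% gained and 20.7% lost. In 243 genes it lay in an exon absent from coding transcripts, the arrangement of a poison exon, and 11.9% gained and 11.5% lost. In 198 genes it lay in an extension of a coding exon, and 17.2% gained and 10.6% lost. In 117 genes the stop was shared with a coding transcript, and 15.4% gained and 13.7% lost, and 14 genes had no coding transcript to compare. Reads cannot tell apart transcripts that share all their bases except by their junctions and length, and 51.0% of the 1345 NMD transcripts have no base that every other transcript of the gene lacks. They made up 65.5% of the class read in another frame, 30.5% of that with an absent exon and 25.8% of that with an extension. Of the 686 genes with such a transcript 11.1% gained and 19.7% lost. Of the 268 with 1 to 99 bases of their own 13.8% gained and 22.8% lost, and of the 391 with at least 100 such bases 14.6% gained and 7.42% lost.

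Relative length went along with the direction of the calls, in NMD transcripts and in others, but only weakly with the difference itself. Across member genes, the difference and the log2 relative length of the most-read NMD transcript had a Pearson r of 0.0699. Of 637 single NMD transcripts with 0.5 to 1 times the mean length of the gene's other transcripts, 11.6% were higher and 22.3% lower. Of 535 with 1 to 2 times that length, 18.1% were higher and 13.8% lower, and of 54 longer ones 24.1% and 1.85%. Of 387 shorter than 0.5 times that length, 2.33% were higher and 9.30% lower. Among all single transcripts, 1.90% were higher and 7.53% lower in the class shorter than 0.5, 10.2% and 20.2% in the class of 0.5 to 1, and 20.6% and 15.3% in the class of 1 to 2. In the longest class all single transcripts had 11.9% higher and 5.33% lower, coding transcripts 9.05% and 5.68%, and retained introns 33.3% and 2.02%. The lean of shorter NMD transcripts toward loss was thus near that of all transcripts of like length. Calls were most frequent at the lowest depth, where 17.3% of genes with 200 to 1000 reads gained and 23.3% lost, beside 15.6% and 16.6% of single transcripts of other classes at that depth. Of genes with 1000 to 5000 reads 8.37% gained and 11.8% lost, beside 9.38% and 10.8%. Above 5000 reads, gains were more frequent than in that middle class, at the 11.0% given above.

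**Figure D5:**
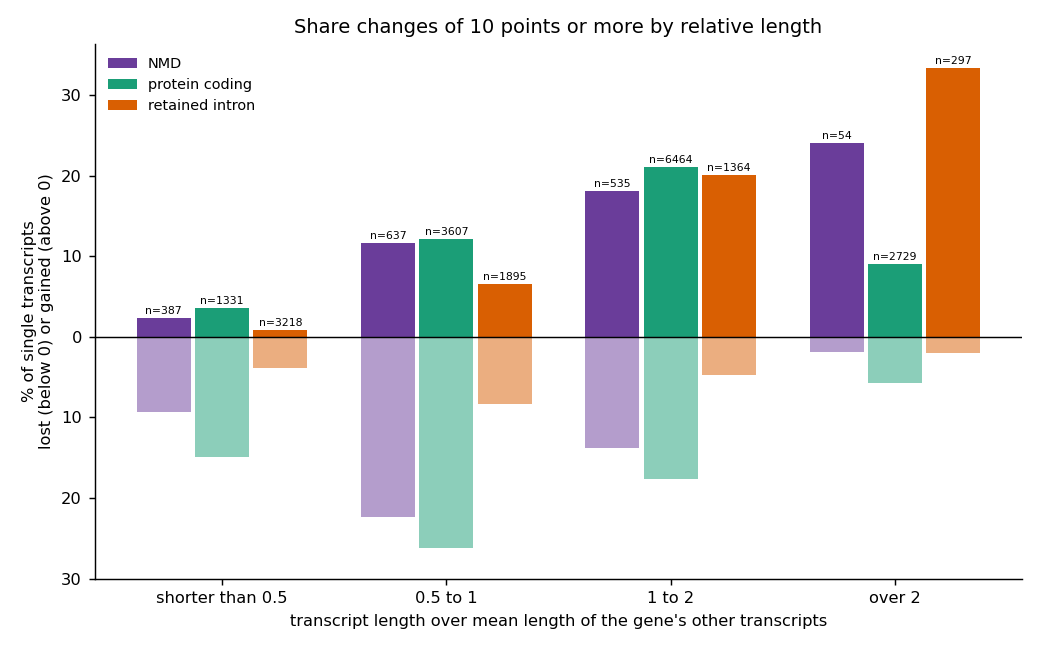
Percentage of single transcripts whose share of their gene was higher (bars above 0) or lower (paler bars below 0) by at least 10 points, by transcript length over the mean length of the gene's other transcripts (x axis), for NMD, protein-coding and retained-intron transcripts, with the number of transcripts above each bar. In the class of 0.5 to 1, losses outnumber gains for NMD (22.3% against 11.6%), and in the class of 1 to 2 gains outnumber losses (18.1% against 13.8%).

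Within one gene, NMD transcripts could also move against each other. Of 234 genes with at least 2 NMD transcripts of 20 reads or more, 24 had some transcripts higher and others lower by the same rule. No matching count for other classes is given here. Of all single transcripts 11.9% were higher and 13.3% lower, and shares of a gene add up to the whole. Such exchanges are therefore not shown to be particular to NMD transcripts. In Porcn, an enzyme of Wnt secretion, Porcn-205 went from 45.2% to 59.9% of the gene and Porcn-207 from 32% to 15.3%. In Gpcpd1, a phosphodiesterase, Gpcpd1-213 went from 9.14% to 26.5% and Gpcpd1-212 from 32.6% to 10.4%. Both genes were named after their values were seen, for their read numbers. The summed NMD share of such genes hides these exchanges.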

How the data were processed

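The 4 deposited files, 2 a group, were used. Per the file headers each lists estimated counts (NumReads) and TPM per transcript. The authors deposited the estimated counts without normalization, and the deposited TPM is scaled to transcript length. The submitters' processing notes name Salmon, DESeq2 and mm10; the sources used here do not give the Salmon version, strand setting or annotation. Salmon divides reads shared by several transcripts by a model, so the share of transcripts with few bases of their own is uncertain, as are overlapping and near-identical genes.

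Identifiers were matched without version to GENCODE release 21 (GRCm38), which covered 115898 of 116546 transcripts (99.4%). Chi-square per degree of freedom over genes was 0.185 between control files and 0.154 between sleep-deprived files, so files were averaged to 1 library a group. The labels call the files of a group technical replicates, each from pooled mice. The gene values lie below what sampling noise gives, while over transcripts the chi-square per degree of freedom was 3.03 and 2.87, above it. Shares, Newcombe 95% intervals and exact conditional intervals of ratios were computed in Python 3.11.15 with scipy 1.17.1. Intervals cover counting error only, and reads are not independent molecules. CPM used TMM from edgeR 4.0.16, and a library under 3 reads was set to 3 reads for a ratio. Levels were called at 2-fold.

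The genes named were the 12 largest gains and losses whose files did not overlap, the 6 genes with most NMD reads, up to 4 genes a list with most NMD reads together with those called, the genes nearest to 10 points, and, chosen after seeing values, called genes over 5000 reads. Some named items are not reported here. The members and lists were chosen with earlier results of these data known. Alternatives covered TPM, read minimums, size of a call, denominator, overlap, biotype, files left out and scaling.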

Additional observations from a re-analysis of the deposited data

How the results depend on the processing

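The number of gains and losses follows the limits set. With 500 reads per gene there were 103 gains and 139 losses, 320 and 361 at 5 points, 53 and 85 at 20 points, and 91 and 128 without genes that overlap another gene. An odds ratio of 2 gave 308 gains and 261 losses, of which 138 and 172 were among those at 10 points. TPM shares gave 183 gains and 247 losses, of which 126 and 186 were shared with the calls by reads. Leaving out single files gave 174 to 183 gains and 224 to 238 losses. The median difference was 0.203 points by TPM, -0.144 with 20 NMD reads in each group, 0.131 with 20 in either group, 0.193 with 500 gene reads, between 0 and 0.0826 with single files left out, and 0.125 in genes whose files of a group lay within 10 points, an alternative added after seeing the data. The cause of these shifts was not tested, other than that stricter minimums and limits leave fewer genes. The sign of the difference was the opposite for Exosc10 by TPM (2.20 points) and, against coding transcripts alone, for Akap8l (1.18 points) and Gpi1 (1.64 points). Counts of genes with NMD reads 2-fold higher ranged from 302 to 325 over the scalings. TMM without a filter on low counts put 1 NMD factor gene, Smg1, at 2-fold, an alternative added after seeing the data; the other scalings put 0 there. Library totals moved the log2 ratio of every gene by -0.05 against TMM. No paired analysis was possible because gene totals of same-group files agree within sampling noise and leave 1 library a group, so the replicate block was not fitted. With 1 library a group, no difference between mice could be measured, and low shares rest on few reads.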
